A study of Homo sapiens with 6 samples.

Results

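The mitochondrial protein import machinery was followed in PrEC, immortalized human cells derived from normal prostate epithelium, with and without knockdown of PKCλ/ι. Its genes were taken by name: every measured gene whose symbol begins with TIMM or TOMM, together with named genes of the sorting and assembly machinery, the import motor, the matrix processing peptidase, the matrix chaperonin, the prohibitins and 2 matrix proteases. This gave 35 genes of the 18404 measured, each represented by its brightest probe set. RNA came from 6 samples, 3 of cells carrying a hairpin named shNT, the reference group, and 3 of cells carrying a hairpin against PKCλ/ι, called shPKCi. PRKCI encodes this atypical member of the protein kinase C family. Both lines grew in the same prostate epithelial medium, untreated, and RNA was taken 48 hours after they were plated. The series calls the 3 samples of a line biological replicates; whether a line was a pool or a clone was not given in the sources used here. The comparison asks which transcripts differ when PKCλ/ι is depleted.

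Most mitochondrial proteins are encoded in the nucleus, made in the cytosol and imported. Precursors cross the outer membrane through the TOM complex and then part ways: beta-barrel proteins go to the SAM complex, carrier proteins are escorted by small TIM chaperones to the TIM22 complex, and proteins with a cleavable presequence pass through the TIM23 complex, pulled in by a matrix motor. In the matrix the presequence is cut off and the protein is folded by a chaperonin or removed by proteases.

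PRKCI, the transcript that the hairpin targets, fell from intensities of 1635, 1428 and 1843 in shNT to 800.3, 810.2 and 753.8 in shPKCi, a log2 change of -1.05 (SE 0.11, adjusted p = 0.000279). Epithelial markers were bright: the 7 measured, among them KRT5, KRT14, CDH1 and EPCAM, had a median at the 98.4th percentile of gene signal. Markers of fibroblasts, endothelium and blood had medians at the 34.6th, 19.5th and 15.6th percentiles, with LUM at percentile 1.81 and PTPRC at percentile 1.17. Of the 5 fibroblast markers 1, COL1A1, lay above the median gene, as did 0 of the 3 endothelial and 0 of the 3 blood markers. Across all genes, limma called 18.5% at an adjusted p under 0.05, 9.55% higher and 8.95% lower in shPKCi. The array of shNT replicate 2 stood apart, with a correlation of at most 0.989 to any other array, and a narrower spread of log2 values (interquartile range 3.33, against 3.46 to 3.52).

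Import genes were higher in shPKCi as far as they changed. Of the 35 genes, 15 rose, 0 fell and 20 did not pass the test, a share of 42.9% higher against the 9.55% of all genes. The median log2 change was 0.33, that of all genes was -0.02, and 31 of the 35 values were above 0. All 3 shPKCi arrays lay above all 3 shNT arrays in 22 of the genes, and below them in 0; over all genes these shares were 18.0% and 17.8%. The import genes are bright, with 29 of them above the median gene, and 14 of those 29 rose. Among all genes above the median, 16.6% were called higher and 13.3% lower. Summed over the 35 genes, intensity ran from 14206 to 16582 in the shNT arrays and from 20243 to 21105 in the shPKCi arrays, so that the groups did not overlap. In bulk RNA a larger share of cells that express a gene and more RNA per cell cannot be told apart.

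**Figure D1:**
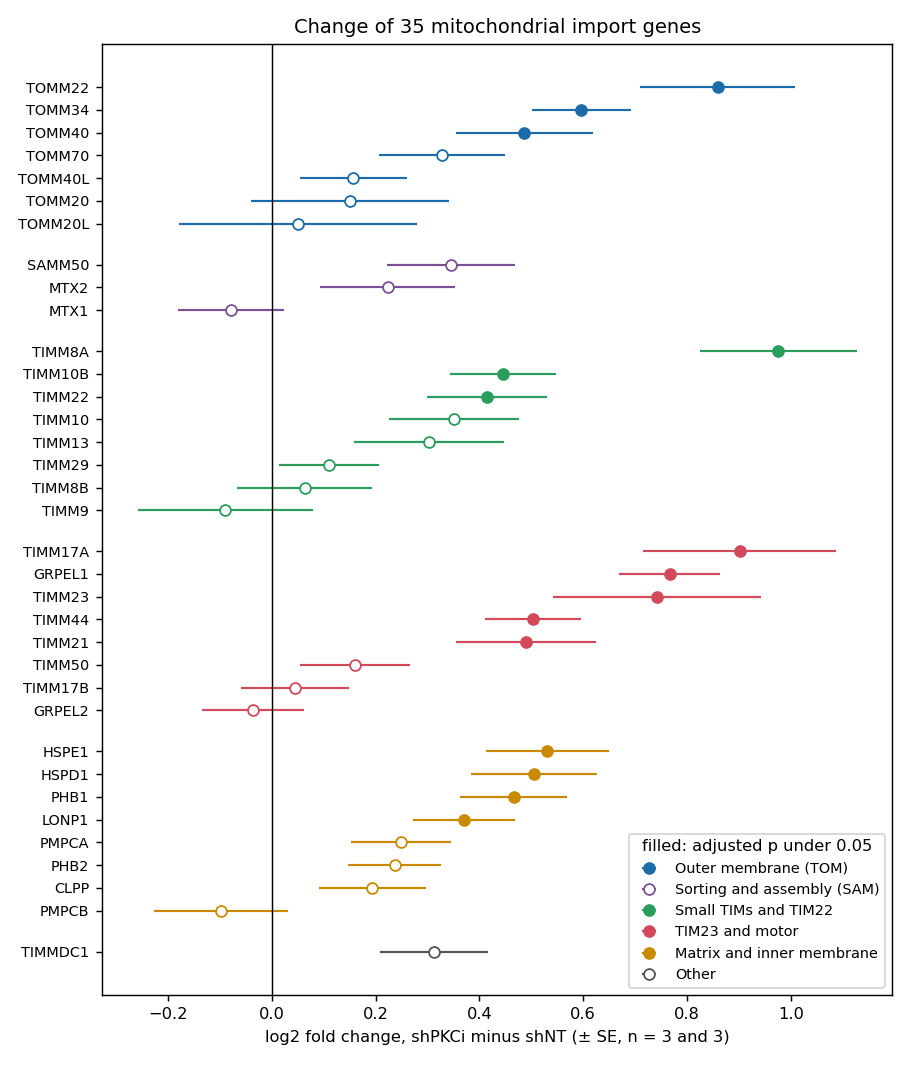
Log2 fold change (shPKCi minus shNT, horizontal axis) of the 35 import genes, grouped by role, with bars for the standard error from limma (3 arrays a group). Filled points passed an adjusted p of 0.05; the 15 filled points all lie to the right of 0, and the values run from -0.10 for PMPCB to 0.98 for TIMM8A.

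The array that stood apart was also the lowest for these genes. Relative to each gene's mean over the 6 arrays, the average import gene lay at -0.24 in shNT replicate 2, at -0.10 in shNT replicate 1 and at -0.18 in shNT replicate 3 on the log2 scale, and between 0.14 and 0.19 in the shPKCi arrays. Without shNT replicate 2, 16 import genes were called higher and 1 lower, where the shares of all genes were 10.5% and 10.6%; the 15 called with all arrays were all among the 16. The median log2 change was then 0.32. Fewer calls were made without an shPKCi array: 8 genes were called without replicate 1 and 9 each without replicates 2 and 3. Without shNT replicate 1, 13 were called and without shNT replicate 3, 11. Calls fell over all genes too. Of 18404 genes, 1758 were called higher with all arrays, and 1072, 997 and 1165 without shPKCi replicates 1, 2 and 3. Without shNT replicates 1 and 3 there were 1480 and 1399. The import genes called in all 6 fits without 1 array were GRPEL1, TIMM17A, TIMM44, TIMM8A, TOMM22 and TOMM34.

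**Figure D2:**
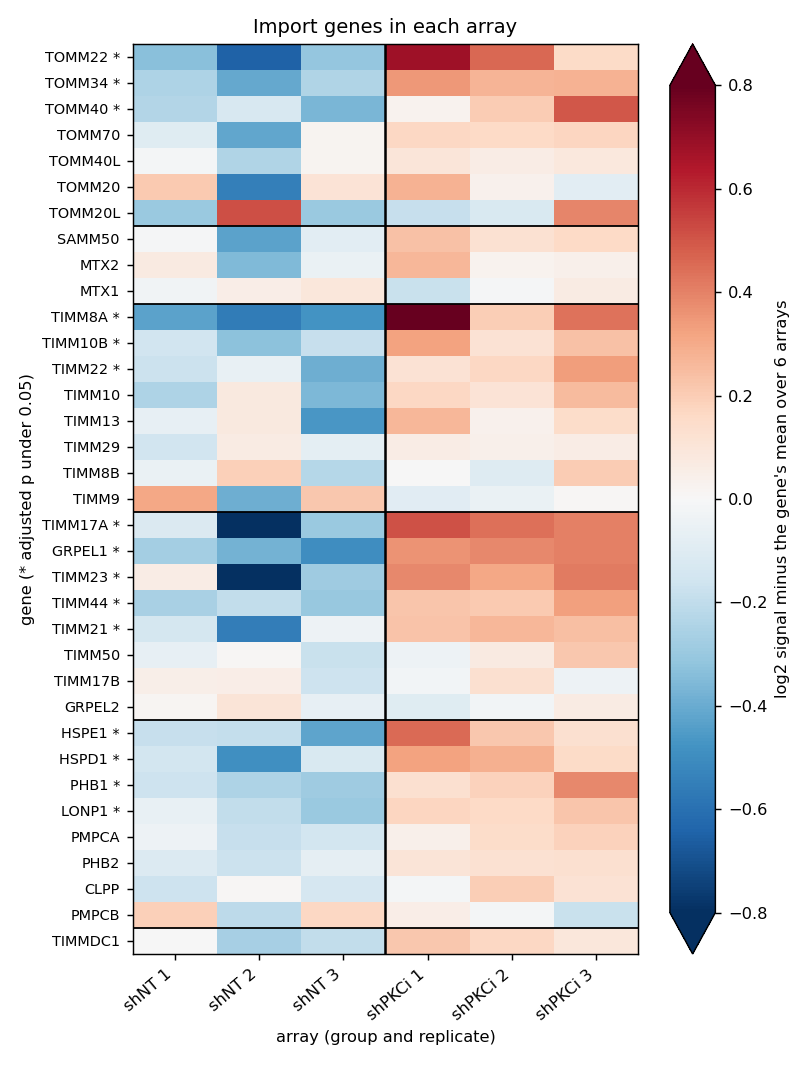
Log2 signal of each import gene (rows, grouped by role, asterisk for an adjusted p under 0.05) in each of the 6 arrays (columns), as the difference from that gene's mean over the arrays. The 3 shNT columns are mostly blue and the 3 shPKCi columns mostly red; shNT replicate 2 is dark blue for TIMM17A and TIMM23 and red for TOMM20L.

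Of the 7 TOMM genes, 3 rose. Beside this count and those of the other roles below stand the 9.55% of all genes called higher and the 16.6% of genes above the median signal. Each role holds few genes, and roles were not tested against each other. TOMM22, the central receptor that also holds the TOM complex together, gave intensities of 565.7, 455.8 and 574.4 in shNT and of 1138, 981.6 and 791.1 in shPKCi, or 9.05 ± 0.19 against 9.91 ± 0.26 log2 units (SD, n = 3). All shPKCi arrays were above all shNT arrays, a 1.81-fold rise (log2 change 0.86, SE 0.15, adjusted p = 0.0035). A second, dimmer probe set of TOMM22 rose by 0.65 (adjusted p = 0.00389 over all probe sets), and both are annotated with the same transcripts; which gene copies each reads was not settled here. TOMM34, a cytosolic co-chaperone that binds precursors, gave 800.3, 714.9 and 805.3 in shNT against 1209, 1144 and 1151 in shPKCi, 1.51-fold (log2 change 0.60, SE 0.10, adjusted p = 0.00234). Its groups were well apart. TOMM40, which forms the channel itself, gave 101.2, 108.7 and 92.15 against 121.3, 136.8 and 168.1, with the shPKCi arrays again above, and rose by 0.49 log2 units (SE 0.13, adjusted p = 0.0304). The call of TOMM40 was lost without shNT replicate 1 or 3 or without shPKCi replicate 2 or 3 (adjusted p from 0.0782 to 0.103).

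The other outer membrane receptors did not pass. TOMM70, the receptor for carrier precursors brought by cytosolic chaperones, had a log2 change of 0.33 (SE 0.12, adjusted p = 0.0987), with the groups apart; it was 0.20 without shNT replicate 2. TOMM20, the presequence receptor, had one of 0.15 (SE 0.19, adjusted p = 0.672). Its arrays overlapped, and the value was -0.09 without shNT replicate 2, where TOMM20 was at 403.6 against 682.6 and 636 in the other shNT arrays. TOMM40L, a close relative of the channel gene, had 0.16 (adjusted p = 0.361, and 0.08 without shNT replicate 2) and TOMM20L, a dim relative of the receptor gene at percentile 20.1 of signal, 0.05 (adjusted p = 0.92, and 0.32 without shNT replicate 2).

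None of the 3 genes of the sorting and assembly machinery passed. SAMM50, the barrel-shaped core of the SAM complex, gave 553.7, 413.3 and 524.6 in shNT and 654.8, 605 and 621.9 in shPKCi. The shPKCi arrays were all above the shNT arrays, with a log2 change of 0.35 (SE 0.12, adjusted p = 0.0851) that was 0.22 without shNT replicate 2. The metaxins, its partners on the cytosolic face, had log2 changes of 0.22 for MTX2 (adjusted p = 0.297, and 0.10 without shNT replicate 2) and -0.08 for MTX1 (adjusted p = 0.678), and the arrays of both overlapped.

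Of the 8 genes of the small chaperones and the TIM22 complex, 3 rose. TIMM8A, a small chaperone of the intermembrane space whose loss causes a deafness and dystonia syndrome, showed the largest change of the 35 genes. Its intensities were 47.51, 43.24 and 45.86 in shNT and 113.7, 73.02 and 86.21 in shPKCi, or 5.51 ± 0.07 against 6.48 ± 0.32 log2 units (SD, n = 3). That is 1.97-fold (log2 change 0.98, SE 0.15, adjusted p = 0.00193), at a signal just below that of the median gene (the 47th percentile), and the lowest shPKCi array was above every shNT array. TIMM10B, which docks the small chaperones on the TIM22 complex, rose 1.36-fold (log2 change 0.45, SE 0.10, adjusted p = 0.0138). TIMM22, the channel of that complex, gave 357, 387.4 and 307.4 in shNT against 437, 452.3 and 509 in shPKCi, 1.33-fold (log2 change 0.41, SE 0.12, adjusted p = 0.0344). TIMM22 passed without shNT replicate 2 (adjusted p = 0.0137) but not without any other single array (0.0669 to 0.127), nor after cyclic loess between arrays (0.0955). The call of TIMM10B was lost without shPKCi replicate 1 (adjusted p = 0.0673).

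The hexamers of the small chaperones are built from TIMM9 with TIMM10 and from TIMM8A with TIMM13. TIMM10 had a log2 change of 0.35 (SE 0.13, adjusted p = 0.0858) and TIMM13 one of 0.30 (SE 0.14, adjusted p = 0.196). TIMM9 had -0.09 (SE 0.17, adjusted p = 0.789). Without shNT replicate 2, TIMM9 had a log2 change of -0.31 (adjusted p = 0.0361) and TIMM10 one of 0.48 (adjusted p = 0.00713). TIMM29, a TIM22 subunit, had 0.11 (adjusted p = 0.52), and TIMM8B, the relative of TIMM8A, 0.06 (adjusted p = 0.811); both were 0.17 without shNT replicate 2. A second TIMM8B probe set had 0.29 (adjusted p = 0.124 over all probe sets).

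On the presequence route 5 of 8 genes rose, with a median log2 change of 0.50 that was 0.41 without shNT replicate 2; roles were not tested against each other. TIMM17A, which lines the translocation path of the TIM23 complex, gave 1041, 587.1 and 914.5 in shNT and 1601, 1530 and 1486 in shPKCi, or 9.69 ± 0.43 against 10.59 ± 0.05 log2 units (SD, n = 3). It rose 1.87-fold, with every shPKCi array above every shNT array. The log2 change was 0.90 (SE 0.19, adjusted p = 0.00836), and 0.66 without shNT replicate 2. GRPEL1, the nucleotide exchange factor that resets the motor chaperone, gave 548.2, 508.5 and 469.5 against 851.3, 865 and 875.2, groups well apart, and rose by 0.77 log2 units (SE 0.10, adjusted p = 0.000651), the smallest adjusted p of the 35 genes. TIMM44, which tethers the motor to the channel, rose by 0.50 log2 units (SE 0.09, adjusted p = 0.00482).

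TIMM23, the namesake subunit of the channel, gave 322.9, 167.3 and 254.3 in shNT and 404.6, 384.5 and 413.4 in shPKCi. The groups did not overlap, although shNT replicate 2 was low, and TIMM23 rose 1.67-fold (SE 0.20 on the log2 scale, adjusted p = 0.0296); without that array the log2 change went from 0.74 to 0.48 (adjusted p = 0.019). TIMM23 did not pass without shNT replicate 3 or without any 1 shPKCi array (adjusted p from 0.0616 to 0.0908). Its probe set is annotated with a single mRNA record and no RefSeq transcript, and a near-identical gene, TIMM23B, exists. TIMM21, which couples the channel to the TOM complex and to the respiratory chain, rose by 0.49 log2 units (SE 0.13, adjusted p = 0.0321), a call lost without shNT replicate 1 and without any 1 shPKCi array (adjusted p from 0.0528 to 0.104). TIMM50, the presequence receptor of the complex, had a log2 change of 0.16 (SE 0.11, adjusted p = 0.37), and its arrays overlapped.

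In the matrix and inner membrane, 4 of 8 genes rose. The matrix chaperonin is a barrel of HSPD1 capped by HSPE1. HSPD1 gave 3015, 2377 and 3060 in shNT and 4164, 4065 and 3704 in shPKCi, 1.42-fold (log2 change 0.51, SE 0.12, adjusted p = 0.0173). HSPE1 gave 583.2, 580.3 and 494.6 against 907.2, 768 and 724.4, 1.44-fold (log2 change 0.53, SE 0.12, adjusted p = 0.0127). In both genes the groups were apart, and their log2 changes differed by 0.03 (SE 0.18). HSPD1 did not pass without shPKCi replicate 1 or 2 (adjusted p = 0.0727 and 0.0697), nor HSPE1 without shPKCi replicate 1 (0.0581).

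PHB1, which with PHB2 forms the ring-shaped prohibitin scaffold of the inner membrane, rose 1.38-fold (log2 change 0.47, SE 0.10, adjusted p = 0.0123), and not without shPKCi replicate 3 (0.0531). PHB2 had a log2 change of 0.24 (SE 0.09, adjusted p = 0.103), with the groups apart. LONP1, the main protease of the matrix, rose 1.29-fold (log2 change 0.37, SE 0.10, adjusted p = 0.0281), but not without shNT replicate 3 or any 1 shPKCi array (adjusted p from 0.0872 to 0.0969), nor with replicate number as a block (0.0601). CLPP, the other matrix protease of the set, had a log2 change of 0.19 (adjusted p = 0.248). The processing peptidase that cuts off presequences is a pair: its substrate-binding subunit PMPCA had 0.25 (SE 0.10, adjusted p = 0.11) and its catalytic subunit PMPCB -0.10 (SE 0.13, adjusted p = 0.684), which was -0.23 without shNT replicate 2. TIMMDC1, an assembly factor of complex I related by name to the translocases, had 0.31 (SE 0.10, adjusted p = 0.0662), and passed without shNT replicate 1 (0.0466).

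Array probes can pick up transcripts of close copies. RefSeq (GRCh38.p14) lists pseudogenes named after 16 of the 35 genes, among them 28 for HSPE1, 22 for HSPD1, 21 for PHB1 and 6 for TOMM22, so that signal from copies cannot be told apart for these genes. For GRPEL1 it lists 3, for TIMM8A 1, and for TIMM17A and TIMM44 0.

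Several import genes come as pairs of relatives. HSPD1 and HSPE1, partners in the chaperonin rather than relatives, were compared with them as a pair. In 5 of the 8 pairs compared 1 gene rose while the other did not pass, and 3 of these 5 had the largest differences between the changes of their genes. Between the 2 lines the log2 signal of TIMM17A moved by 0.86 more than that of TIMM17B (SE 0.29). For GRPEL1 it moved by 0.80 more than for GRPEL2 (SE 0.07), and for TIMM8A by 0.91 more than for TIMM8B (SE 0.24). The value for TIMM8B is that of its brighter probe set. Its other probe set had a log2 change of 0.29, with all shPKCi arrays above all shNT arrays, and was not compared with TIMM8A. TIMM17B itself gave 50.44, 50.72 and 43.7 in shNT and 48.21, 53.55 and 47.53 in shPKCi, overlapping groups with a log2 change of 0.04 (adjusted p = 0.834). Without shNT replicate 2 the log2 change was 0.66 for TIMM17A and 0.08 for TIMM17B. TIMM17B lay at percentile 39.9 of signal and TIMM17A at percentile 96.1. GRPEL2 had a log2 change of -0.04 (SE 0.10, adjusted p = 0.858). In these 3 pairs, and in PHB1 with PHB2 (0.23 more, SE 0.09), the within-array differences of the lines did not overlap. Each of the 4 gave p = 0.1 in a two-sided exact permutation test over the 6 arrays, the smallest that 3 against 3 allow, and 0.2 after adjustment over the 8 pairs compared. The changes of TOMM40 and TOMM40L differed by 0.33 (SE 0.20), those of PMPCA and PMPCB by 0.35 (SE 0.15) and those of TOMM20 and TOMM20L by 0.10 (SE 0.58), with overlapping arrays.

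**Figure D3:**
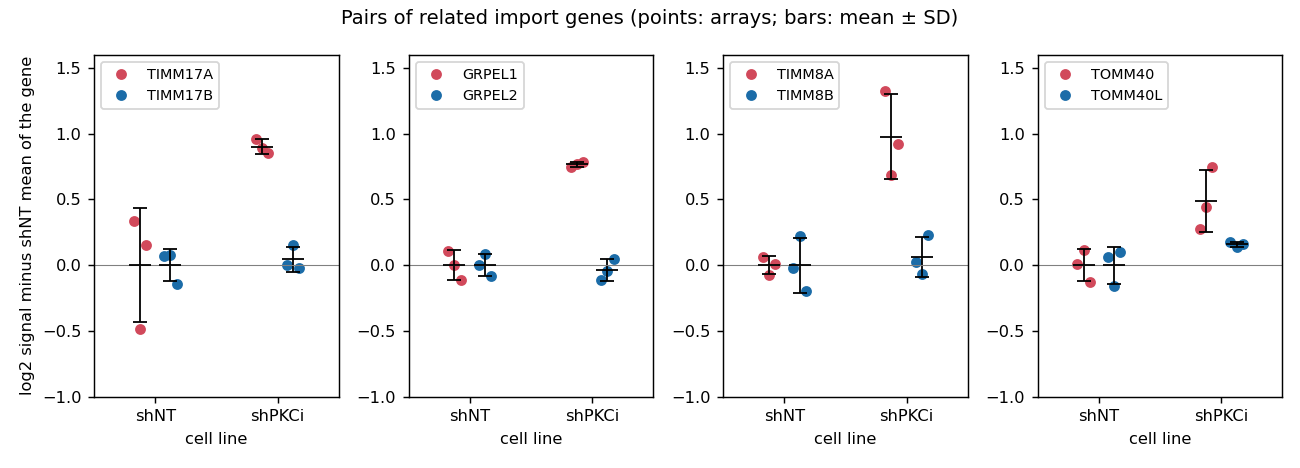
Log2 signal of 4 pairs of related import genes in each array (points), as the difference from that gene's shNT mean, with mean and SD as black bars (3 arrays a line). The shPKCi points of TIMM17A, GRPEL1 and TIMM8A lie above all their shNT points, while those of TIMM17B, GRPEL2 and TIMM8B lie around 0.

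Promoter sequences are shown for these results because the pairs and the chaperonin genes allow a direct look at shared letters. RefSeq promoter windows (GRCh38.p14, 250 bases before a gene's start to 50 after) were found for 32 of the 35 genes; CLPP, GRPEL1 and TIMM8B had none in the table used. The bases before the start are printed, cut short where another annotated gene lies. Capitals mark the motif CCAAT, on either strand, in TIMM17A (chr1:201955253-201955502, plus strand) and in its relative TIMM17B (chrX:48897769-48897929, minus strand), of which the first rose and the second did not pass.
TIMM17A: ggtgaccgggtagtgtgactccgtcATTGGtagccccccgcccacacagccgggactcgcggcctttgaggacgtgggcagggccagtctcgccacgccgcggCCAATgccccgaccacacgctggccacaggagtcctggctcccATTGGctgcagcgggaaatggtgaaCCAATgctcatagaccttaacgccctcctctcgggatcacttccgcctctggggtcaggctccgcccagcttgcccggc
TIMM17B: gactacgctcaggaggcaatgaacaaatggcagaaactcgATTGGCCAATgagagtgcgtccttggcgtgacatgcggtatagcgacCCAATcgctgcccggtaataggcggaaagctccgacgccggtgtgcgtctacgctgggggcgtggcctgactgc

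HSPD1 and HSPE1 stand head to head on chromosome 2, and 104 bases separate their start sites (chr2:197500275-197500378, shown on the plus strand, in the direction of HSPE1). Capitals mark an E-box, CACGTG, a motif bound by MYC and related factors, which reads the same on both strands.
HSPD1 and HSPE1, shared segment: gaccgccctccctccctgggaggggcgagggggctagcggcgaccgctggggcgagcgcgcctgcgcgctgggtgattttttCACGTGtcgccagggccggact

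The motif CCGGAAG, which ETS factors such as GABPA bind, is marked in TIMM23 (chr10:45972429-45972488, plus strand), a gene that rose, and in GRPEL2 (chr5:149345249-149345498, plus strand), one that did not pass.
TIMM23: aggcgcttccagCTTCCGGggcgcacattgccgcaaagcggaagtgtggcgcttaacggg
GRPEL2: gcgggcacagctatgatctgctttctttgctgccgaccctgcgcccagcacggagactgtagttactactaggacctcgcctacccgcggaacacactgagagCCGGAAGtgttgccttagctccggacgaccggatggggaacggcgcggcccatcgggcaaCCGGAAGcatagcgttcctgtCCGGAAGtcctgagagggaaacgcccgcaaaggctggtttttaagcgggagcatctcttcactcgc

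Counted on both strands of the full 300-base windows, CCGGAAG was present in 15 of the 32 import genes, or 46.9%, against 16.8% of 14228 genes on the array with a window. The 15 comprised 5 of the 14 genes that rose and 10 of the 18 that did not pass. The E-box was in 6 import genes, or 18.8%, against 10.9%, and 4 of these 6 rose. HSPD1 and HSPE1 are among the 4, and the E-box in their shared segment was counted for both. CCAAT was in 13, or 40.6%, against 42.2%. The ATF4 and CEBP composite motif TGATGCAA was in PMPCB and TIMM22 (6.25% against 0.970%), the NRF1 motif in LONP1 (3.13% against 2.05%), and the paired heat shock unit GAANNTTC in HSPD1 (3.13% against 7.32%). These are matches of letters and were not tested as binding sites. Mean GC content was 63.6% in the import windows and 61.2% in those of array genes, and its part in the motif shares was not tested.

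Other genes of protein import and mitochondrial quality control were called in the same direction. Of 34 measured partner genes outside the named set, 9 rose, 0 fell and 25 did not pass, with a median log2 change of 0.21. The share higher was 26.5%, against 9.55% of all genes. Among genes above the median signal, where 32 of the 34 lay, 16.6% were called higher. The shPKCi arrays lay above the shNT arrays in 14 of the 34 and below them in 4. Over all genes these shares were 18.0% and 17.8%. In the 4 below, IMMP2L, MTCH1, IMMT and OXA1L, log2 changes were -0.24, -0.30, -0.14 and -0.11 (adjusted p from 0.0788 to 0.463). These 4 were chosen after their values were seen. DNAJC11, a J-domain protein of the complex that links the outer and inner membranes, gave 191.7, 178.7 and 189.2 in shNT and 341.9, 320.2 and 327.3 in shPKCi, and rose by 0.82 (adjusted p = 0.000323). It passed without any single array, while the other 8 passed in 0 to 4 of those 6 fits. CHCHD4, the oxidoreductase that drives import into the intermembrane space, rose by 0.51 (adjusted p = 0.0153) and CHCHD3, of the cristae-organising complex, by 0.50 (adjusted p = 0.0221). AFG3L2, an inner membrane protease, rose by 0.41, PITRM1, which degrades cut-off presequences, by 0.37, and AGK, a lipid kinase that is also a TIM22 subunit, by 0.35, with adjusted p between 0.0198 and 0.0243.

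The cytosolic chaperones that hand precursors to TOMM70 were among the 9: HSPA8 rose by 0.46 (adjusted p = 0.011) and HSP90AA1 by 0.50 (adjusted p = 0.0372). HSPA9, the mitochondrial HSP70 that pulls precursors into the matrix, gave 3122, 2858 and 3062 in shNT and 3729, 3924 and 3607 in shPKCi. The groups were apart and the log2 change was 0.32 (adjusted p = 0.0426), but the call was lost in each of the 6 fits without 1 array (adjusted p from 0.0506 to 0.174). The count of partner genes called higher, of 34, was 10 without shNT replicate 2, 5 without shNT replicate 1 and 4 without shNT replicate 3. It was 2 each without shPKCi replicates 1 and 2, and 3 without shPKCi replicate 3. Of all 18404 genes, 1935, 1480, 1399, 1072, 997 and 1165 were called higher in these fits, in the same order. Without shPKCi replicate 1 or 2 the share of partner genes called higher was thus close to that of all genes.

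Set beside other gene groups, the import genes were closer to the mitochondrial ribosome than to the respiratory chain in their counts. No difference between groups was tested. Of all genes, 9.55% were called higher and 8.95% lower, and of those above the median signal 16.6% and 13.3%. Above the median lay 71 of the 74 mitochondrial ribosomal, 79 of the 90 respiratory and 8 of the 9 chaperonin genes. Of 74 genes of mitochondrial ribosomal proteins, which translate the mitochondrial genome, 28 rose and 0 fell, a share of 37.8% higher with a median of 0.30; MRPL50 rose by 0.94 and MRPL20 by 0.87 (adjusted p = 0.000221 and 0.000764). Of 90 genes of the respiratory chain and ATP synthase, 8 rose (8.89%) and 2 fell (2.22%), with a median of 0.04. These 90 were taken by symbol and so include some assembly factors. The 8 included the complex I assembly factor genes NDUFAF4 (0.96, adjusted p = 0.00157) and NDUFAF5 (0.51, adjusted p = 0.0142). Of the 9 genes of the cytosolic chaperonin, which folds actin and tubulin, 5 rose (55.6%) and 1, CCT6B, fell (11.1%). CCT6B lies at percentile 17.8 of signal and passed in 2 of the 6 fits without 1 array. CCT2 rose by 0.65 and CCT6A by 0.64 (adjusted p = 0.00229 and 0.00352).

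**Figure D4:**
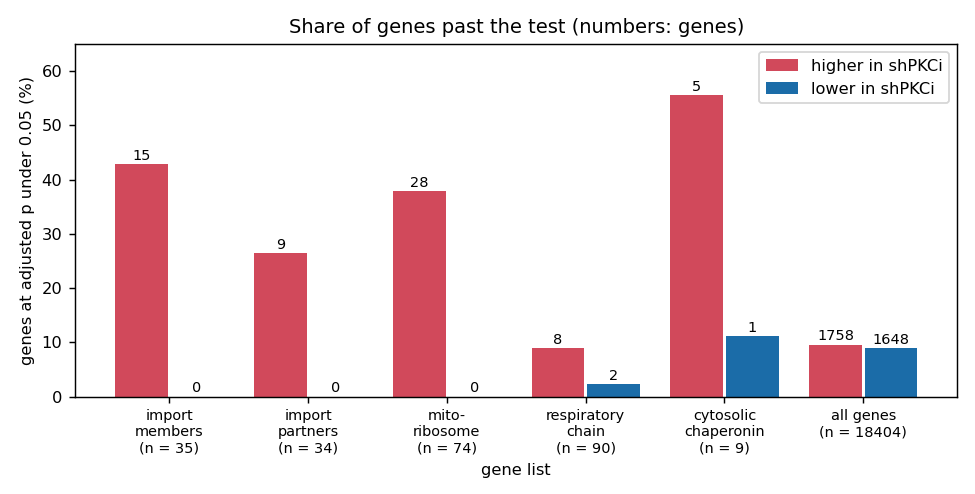
Percent of genes called higher (red) or lower (blue) in shPKCi at an adjusted p under 0.05 in 5 gene lists and among all genes, with the number of genes above each bar and the list size under it. The bars for import genes reach 42.9% higher and 0 lower, and those for all genes 9.55% and 8.95%.

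Of 12 genes that regulate mitochondrial biogenesis or mitochondrial stress responses, 2 rose, 0 fell and 10 did not pass. The share higher was 16.7%, against 9.55% of all genes and 16.6% of genes above the median signal. Of the 12 regulators, 9 lay above the median, among them the 2 that rose. TFAM, which packages and transcribes mitochondrial DNA, gave 897.9, 755.8 and 913 in shNT and 1225, 1321 and 1239 in shPKCi, a rise of 0.56 (adjusted p = 0.00533). PPRC1, a coactivator of the PGC-1 family, gave 137.5, 144.4 and 139.3 against 195.6, 219.7 and 215.3, a rise of 0.58 (adjusted p = 0.00249). Both genes passed in all 6 fits without 1 array. The relatives of PPRC1, PPARGC1A and PPARGC1B, had log2 changes of 0.19 (adjusted p = 0.412) and 0.14 (adjusted p = 0.566), with PPARGC1A at the 12.9th percentile of signal.

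None of the other regulators passed. ATF5, a regulator of the mitochondrial unfolded protein response, had a log2 change of 0.40 (SE 0.13, adjusted p = 0.0683), with the groups apart, and did not pass in 13 of 17 alternatives (adjusted p from 0.0351). ATF4, DDIT3 and CEBPB, of the wider stress response, had -0.08, -0.03 and -0.12 (adjusted p = 0.671, 0.873 and 0.503). The factors of nuclear genes for mitochondria, NRF1 and GABPA, had 0.27 and 0.25 (adjusted p = 0.14 and 0.181), and ESRRA 0.06 (adjusted p = 0.792). MYC had 0.23 (adjusted p = 0.149), and passed without shNT replicate 2 (adjusted p = 0.0423).

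Markers of cell types were set beside these changes. Summed epithelial marker intensity ran from 15367 to 16755 in shNT and from 16378 to 16998 in shPKCi, with EPCAM higher by 0.60 (adjusted p = 0.0128), KRT14 lower (log2 change -0.33, adjusted p = 0.0356) and the other 5 not past the test. Of 5 fibroblast markers, COL1A1 fell by 0.49 (adjusted p = 0.0244), and the summed level was 215 to 285 in shNT and 183 to 195 in shPKCi. No endothelial marker of 3 passed (summed 59.4 to 70.6 and 59.2 to 65.4). Of 3 blood markers, CD3D rose by 0.34 (adjusted p = 0.0324) at the 15.6th percentile of signal, with a summed level of 56.1 to 60.1 and of 62.7 to 72.0. None of these 4 marker calls held in all 6 fits without 1 array. The part of these markers in the import results was not tested.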

How the data were processed

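Biotin-labelled RNA of each of the 6 PrEC samples was measured on an array of its own, per the labels. The authors deposited intensities for 32321 probe sets. Their scale was taken as linear from the values, since no source states it and RMA usually returns log2 values. The submitters' processing notes name RMA; no version, program or build was given in the sources used here. Values were log2-transformed. Probe sets with 1 gene symbol in the platform annotation were kept (19158; 1388 had several symbols and the other probe sets were not listed), and the brightest was taken per gene, giving 18404 genes with no filter on low values. Brightness was used as deposited, without detection calls. The 5 probe sets that name an import gene beside another gene were left out.

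Lines were compared with limma 3.58.1 (lmFit, eBayes; R 4.3.3) on all 6 arrays without covariates. Benjamini-Hochberg adjustment ran over all genes, with a threshold of 0.05, and the median standard error was 0.11. The fit was tested on simulated data. The number of arrays limits the precision, and whether replicates were separate cultures was not given in the sources used here, so that p-values measure the spread between these samples, which may be technical. The import genes, partner genes and other lists were chosen with earlier results of these data known. All import genes were named, with partner genes past the threshold, HSPA9, 12 regulators and the 2 genes of smallest adjusted p in each other list; array values were set to be given for the 6 largest rises and 6 channel genes, and others were added after their values were seen. Alternatives were scaling, low-signal filters, probe set choice, variance model, array weights, a replicate block, stricter thresholds and each array left out.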

Additional observations from a re-analysis of the deposited data

How the results depend on the processing

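The 15 called import genes had log2 changes above 0 with arrays centred on the median, after cyclic loess, with array weights and without each of the 6 arrays; the other alternatives mostly leave these values as they are. GRPEL1, TIMM8A and TOMM22 passed in each that tested them. The count of import genes called higher (15) was 13 to 19 under other scaling, filters, probe set choices, variance models and array weights or with a replicate block; it was 6 at an adjusted p under 0.01, 3 with treat against a fold of 1.2, and 8 to 16 with 1 array left out. The count called lower (0) was 0 to 1 with 1 array left out. Partner genes called higher (9) numbered 1 at an adjusted p under 0.01, 1 with treat, and 2 to 10 with 1 array left out. Partner genes called lower (0) numbered 3 with array weights, 1 after cyclic loess, 1 among genes above the median signal and 0 to 2 with 1 array left out. Over all genes, 870 were higher and 902 lower at an adjusted p under 0.01, and 503 and 599 with treat; with 1 array left out they ran from 997 to 1935 and from 1048 to 1959. The stricter thresholds make fewer calls by construction; otherwise the cause was not tested. PRKCI kept its call, with log2 fold changes from -1.14 to -0.96.

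Replicate numbers did not pair the arrays: deviations from the group means correlated at 0.12, -0.06 and -0.18 in same-numbered arrays, and not every array correlated best with its own number. With the replicate block, 13 import genes were called higher and 6 partner genes, and 1537 genes were higher and 1441 lower overall; the import genes that lost the call were LONP1 (adjusted p = 0.0601) and TIMM22 (0.063). TIMM10 passed with arrays scaled to a common median (adjusted p = 0.0433), after cyclic loess (0.035) and with array weights (0.00682). TIMMDC1 passed with array weights (0.0458), both low-signal filters (0.0439 and 0.028) and the trended robust variance (0.0318), as did PHB2 with the latter (0.0486). PHB2, PMPCA, SAMM50 and TOMM70 passed among genes above the median signal (0.0391 to 0.0499 over the 4, with PMPCA at 0.0463 and SAMM50 at 0.0425). Dim genes such as TOMM20L cannot be told from background.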

Other observations

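The 5 probe sets annotated with an import gene and a further gene cannot be given to either gene. Their log2 differences, shPKCi minus shNT, were 0.62 for the probe set shared by TOMM5 and FBXO10, 0.43 for TIMM23B and TIMM23, 0.27 for PAM16 and the CORO7-PAM16 readthrough, -0.01 for TOMM6 and PRICKLE4, and -0.22 for TOMM7 and C4orf46. These were not tested.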
